A study of Homo sapiens with 6 samples.

Results

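Salicylate at 50 mM for 60 min was compared with no treatment in HEK293, an established human cell line of embryonic kidney origin. The members of the comparison are the arrays labelled for these groups, 4 of the 6 arrays of the series: 2 from cells given sodium salicylate for 60 min and 2 from untreated cells. The other 2 arrays carried RNA of cells exposed for 30 min at the same dose, and entered the fit only to estimate the spread between arrays. Total RNA was copied from an oligo(dT) primer into labelled RNA and hybridised to Illumina bead arrays with 47323 probes. Probes entered the comparison when 2 or more of the 6 arrays detected them at p below 0.05. This kept 22377 probes and 12547 genes of the 20046 with a probe. All groups were the same line in the same medium, the salt was added from a stock in water, and the labels name no mock treatment and no other sodium salt. Salicylate, the time, the handling and the salt load cannot be told apart here. Whether the 2 samples of a group were separate cultures is not in the labels, so the p-values rest on a spread between samples that may be purely technical.

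Salicylate is the compound that aspirin breaks down to in the body. At high concentrations it is known to activate AMP-activated protein kinase by direct binding, to uncouple mitochondrial respiration from ATP synthesis and to hold back the kinase that releases NF-kappaB. In so short an exposure the transcripts that can fall most are those with fast turnover, such as the messages of immediate early genes and of many transcription factors, while long-lived messages follow a change in their synthesis slowly.

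The 60 min arrays detected 20771 and 20820 probes and the untreated arrays 20726 and 21740. Of 10 genes chosen as markers of HEK293 cells, 9 were detected on all 4 arrays, among them the neurofilament genes NEFL, NEFM and INA, and PAX2 on none. Of 5 endothelial markers and of the 4 keratinocyte markers with a probe, 0 were detected, as were PTPRC, CD3E and LYZ among leukocyte markers, whereas CD14 was detected. The hepatocyte markers ALB and SERPINA1 and the proximal tubule marker LRP2 were also detected on all 4 arrays. Of 2 fibroblast proteoglycan genes, LUM was detected on both 60 min arrays and on neither untreated array, and passed in limma (adjusted p = 0.0314). The other, DCN, was detected on 1 untreated array and on neither 60 min array, with a log2 change of -0.21 that did not pass. COL1A1 and PDGFRA did not pass the test and COL1A2 was detected on none of the 4 arrays. Across genes the 60 min arrays correlated at 0.99574 with each other and the untreated arrays at 0.99678, against 0.99057 to 0.99174 between the groups.

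Promoter sequence is shown for the 2 largest rises and the 2 largest falls among coding genes whose every detected probe was called the same way and that have exactly 1 promoter window in the RefSeq table (GRCh38.p14), so that the start region of leading genes can be read beside their values below. Each window runs from 250 bases before to 50 bases after the annotated start. Capitals mark a match, on either strand, to TGACGT, the core of the site bound by CREB proteins, or to TATAAA, the TATA box. No other site was searched for. MYL5 lies at chr4:674292-674591 on the plus strand and CLPSL2 at chr6:35776348-35776647 on the plus strand, both higher at 60 min. TADA2B lies at chr4:7043122-7043421 on the plus strand and RANBP3L at chr5:36301853-36302152 on the minus strand, both lower.
MYL5: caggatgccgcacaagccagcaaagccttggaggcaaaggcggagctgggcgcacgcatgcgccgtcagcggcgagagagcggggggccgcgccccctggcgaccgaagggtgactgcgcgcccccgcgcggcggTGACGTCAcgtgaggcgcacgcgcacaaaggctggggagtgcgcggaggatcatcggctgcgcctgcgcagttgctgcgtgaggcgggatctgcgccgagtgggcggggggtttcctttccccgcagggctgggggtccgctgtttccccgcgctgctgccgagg
CLPSL2: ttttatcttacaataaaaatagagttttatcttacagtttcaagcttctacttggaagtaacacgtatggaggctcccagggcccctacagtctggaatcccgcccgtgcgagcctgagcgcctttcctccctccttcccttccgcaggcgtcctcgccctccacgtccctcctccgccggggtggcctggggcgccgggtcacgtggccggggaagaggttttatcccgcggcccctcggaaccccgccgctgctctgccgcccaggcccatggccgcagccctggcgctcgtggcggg
TADA2B: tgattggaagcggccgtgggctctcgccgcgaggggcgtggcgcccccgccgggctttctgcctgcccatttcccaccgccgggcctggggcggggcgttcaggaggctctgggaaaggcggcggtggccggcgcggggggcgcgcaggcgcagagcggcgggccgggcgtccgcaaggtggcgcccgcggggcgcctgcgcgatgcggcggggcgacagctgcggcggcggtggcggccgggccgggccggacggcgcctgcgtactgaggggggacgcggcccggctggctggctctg
RANBP3L: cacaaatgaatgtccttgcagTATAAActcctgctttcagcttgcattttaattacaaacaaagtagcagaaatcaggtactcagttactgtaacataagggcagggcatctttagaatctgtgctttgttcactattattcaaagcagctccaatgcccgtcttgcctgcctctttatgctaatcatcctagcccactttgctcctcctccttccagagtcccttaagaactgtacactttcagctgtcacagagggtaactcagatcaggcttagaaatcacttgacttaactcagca
The window of MYL5 holds TGACGT at position -115 from the start and again on the other strand at -113, and these overlap in the palindrome in capitals. RANBP3L has TATAAA at -229, and the windows of CLPSL2 and TADA2B have neither run of letters. Of the 12547 genes tested, 7153 had exactly 1 window. TGACGT was found in the windows of 80 of 740 higher genes (10.8%) and of 126 of 910 lower genes (13.8%), beside 12.2% of those tested and 8.31% of all promoters with 1 window per gene. TATAAA was found in 4.86% of windows of higher genes, in 5.05% of lower ones, in 6.15% of those tested and in 12.7% of all promoters. A match describes these letters only.

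After 60 min of salicylate, 2871 of the 12547 genes passed an adjusted p of 0.05 in limma (22.9%), 1323 higher (10.5%) and 1548 lower (12.3%). Most changes were small. The median size among these genes was 0.36 on the log2 scale, 86.6% of them changed by less than 1.5-fold, and 37 changed by at least 2-fold (0.295%), 21 higher (0.167%) and 16 lower (0.128%). Every change below is the log2 difference of mean normalized intensity, 60 min minus untreated, and ± is its standard error (SE, n = 2 arrays per group). The intensities of the groups did not overlap for 60.5% of genes (28.9% above and 31.6% below at 60 min), and 2 arrays against 2 cannot give an exact permutation p below 0.333, so the calls rest on the spread pooled over all genes and 6 arrays. Over all detected probes, 3645 of 22377 passed (16.3%), 1733 higher (7.74%) and 1912 lower (8.54%). The split between directions depended on the scaling: when each array was scaled by its median, 404 genes rose (3.22%) and 1250 fell (9.96%), and the median over all genes moved to -0.0596 in place of -0.0082. Omitting control replicate 1 left 1360 calls, and omitting control replicate 2 left 1239. Of 16 other settings, 706 calls held in each that tested the gene, 256 higher and 450 lower. A gene said below to hold in every setting is among them, and a gene not detected on all 6 arrays was tested in 15, since the stricter filter left it out.

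**Figure D1:**
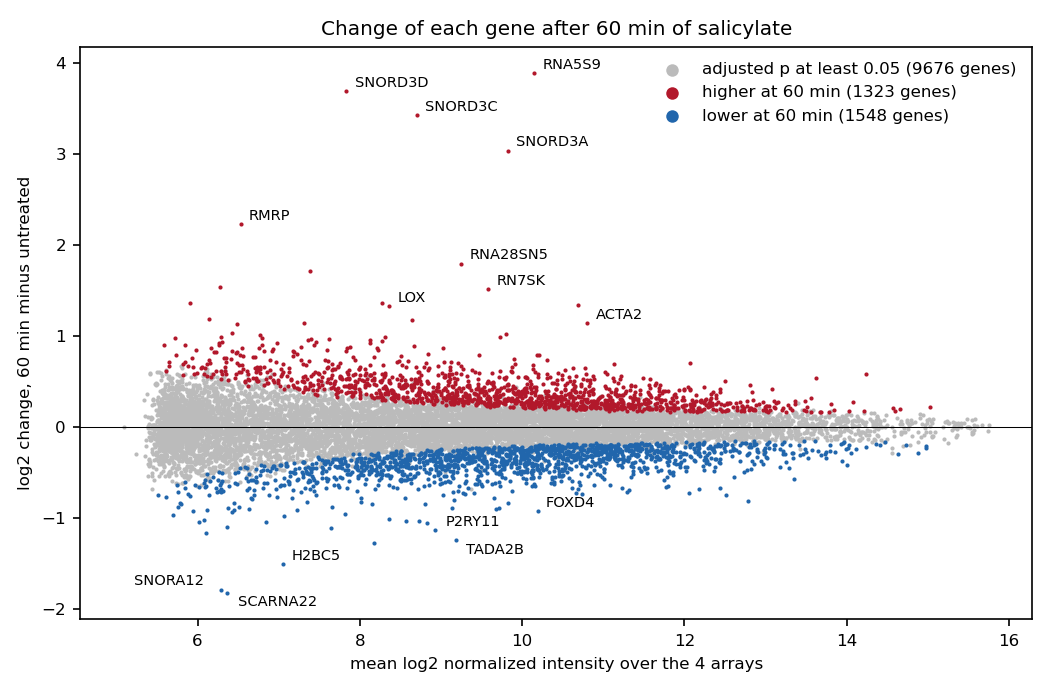
Log2 change, 60 min minus untreated, of each of the 12547 genes (vertical axis) against its mean log2 normalized intensity over the 4 arrays (horizontal axis); red points passed the test as higher, blue points as lower and grey points did not pass. Calls spread over the range of intensity, and the points farthest from 0 are RNA5S9 and the U3 genes above and SCARNA22 and SNORA12 below; the balance of red and blue moves with the scaling, to 404 higher and 1250 lower with median scaling.

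Among probes with a gene name, the largest changes were in short structural RNAs that are not translated. RNA5S9 encodes the 5S ribosomal RNA and read 12.13 and 12.04 at 60 min, against 8.25 and 8.15 in untreated cells (all such readings are log2 normalized intensities). SNORD3D, SNORD3C and SNORD3A encode U3, the small nucleolar RNA that guides cleavage of the ribosomal RNA precursor. SNORD3A, the brightest of their probes, read 11.28 and 11.40 at 60 min, against 8.42 and 8.18. In each of these genes both 60 min arrays stood far above both untreated arrays, and the log2 changes were 3.89 ± 0.07, 3.68 ± 0.11, 3.43 ± 0.10 and 3.03 ± 0.09 in the order named. RMRP, the RNA of the enzyme RNase MRP, read 7.62 and 7.67 at 60 min and was not above background in untreated cells, which makes it at least 3.94-fold higher (adjusted p = 1.05e-05). Such a bound divides the brighter group's mean by a floor for the dimmer group, which on each array is the lowest detected signal or the gene's own reading if that is larger. RN7SK, which sequesters the elongation factor P-TEFb in an inactive particle, read 10.33 and 10.34 at 60 min, against 8.79 and 8.86, and both of its probes rose (by 1.51 and 2.16). Of the 13 RNAs in the polymerase III list 8 were higher (61.5%, beside 10.5% of all genes) and 0 lower, with a median of 0.54. With median scaling 7 were higher, and with the 4 arrays fitted alone 8 were higher and 1 lower. RMRP passed the detection filter only through treated arrays. Among the 10 members detected on all 6 arrays 5 were higher and 0 lower, with a median of 0.33. Of 7 spliceosomal RNAs, 4 were higher (57.1%) and 0 lower. They were RNU11, of the U11 particle of the minor spliceosome (0.97), and the U1 genes RNVU1-7, RNU1-3 and RNVU1-18 (0.71, 0.62 and 0.61), and all 4 held in every setting. Without background correction the changes of SNORD3D, RMRP and RNU11 were 2.45, 1.10 and 0.50. The U1, U3, 5S and 28S genes exist in near-identical copies, so a probe named for any of them may measure others. Since the labelled RNA was made from an oligo(dT) primer, a change in the amount of such an RNA and a change in how much of it that primer could copy cannot be told apart.

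Other small nucleolar RNAs changed in both directions. SNORA57 read 8.30 and 8.19 at 60 min, against 6.54 and 6.52 in untreated cells, a log2 change of 1.72 ± 0.11. SCARNA22, a small RNA of Cajal bodies, read 5.46 and 5.45 at 60 min, where it was not above background, against 7.30 and 7.26, and was at least 2.98-fold lower (adjusted p = 4.38e-05). SNORA12 was likewise not above background at 60 min and at least 2.8-fold lower (adjusted p = 0.000457). Without background correction the changes of these 3 genes were 1.04, -0.86 and -0.85. Of 47 guide RNAs of the C/D class other than U3, 3 were higher and 7 lower (6.38% and 14.9%), with a median of 0.02. Of 47 of the H/ACA class, 2 were higher and 6 lower (4.26% and 12.8%), with a median of -0.12. Over all genes these shares were 10.5% and 12.3%. The numbers of lower C/D and H/ACA RNAs were 4 and 3 without control replicate 1, and 5 and 3 without control replicate 2. SNORD99 (1.14), SNORD14C (-1.10), SNORD84 (at least 1.79-fold lower, adjusted p = 0.00286) and SNORA3B (-1.05) held in every setting, while SNORD14D (-0.88) was lost without control replicate 1 (adjusted p = 0.115). SNORD12C, not above background in untreated cells and at least 1.29-fold higher (adjusted p = 0.0128), was lost with either control array or 60 min replicate 2 omitted (adjusted p up to 0.12). Without background correction the changes of SNORD99, SNORD14C, SNORA3B and SNORD14D were 0.68, -0.50, -0.54 and -0.42.

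Among coding genes the largest rises included extracellular matrix and actomyosin genes. LOX encodes lysyl oxidase, which cross-links collagen and elastin outside the cell, and read 8.87 and 9.17 at 60 min, against 7.71 and 7.68 in untreated cells. Its relative LOXL4 read 7.24 and 7.30 at 60 min, against 6.46 and 6.06. Both 60 min arrays exceeded both untreated arrays in each, by 1.33 ± 0.11 (adjusted p = 4.77e-05) and 1.01 ± 0.17 (adjusted p = 0.0018), the second being 0.51 without background correction. ACTA2, the actin of smooth muscle, read 11.32 and 11.43 at 60 min, against 10.21 and 10.26. MYL5, a myosin light chain gene, read 9.21 and 9.23 at 60 min, against 8.14 and 7.97. These were changes of 1.14 ± 0.06 and 1.17 ± 0.09 with groups far apart (adjusted p = 1.44e-06 and 3.14e-05), and both probes of MYL5 rose (1.05 and 1.17). Of 14 actins and targets of the serum response factor SRF, 4 were higher and 2 lower (median 0.16). These were 28.6% and 14.3%, beside 10.5% and 12.3% of all genes. Those called higher beside ACTA2, namely TPM1, TPM4 and MYH9, changed by 0.22, 0.21 and 0.21. SRF itself fell by 0.23 on the log2 scale. The counts were 1 and 0 without control replicate 1, 2 and 0 without control replicate 2 and 1 and 0 with median scaling, and the calls of SRF and TPM1 ended in each of these (adjusted p up to 0.132 and 0.445).

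Further coding genes rose about 2-fold. FAH, the last enzyme of tyrosine breakdown, read 10.28 and 10.34 at 60 min, against 9.35 and 9.24 in untreated cells. CTSH, the lysosomal protease cathepsin H, read 10.19 and 10.26 at 60 min, against 9.25 and 9.22. The readings of a group lay within 0.11 of each other in both genes, beside changes of 1.01 ± 0.07 and 0.99 ± 0.08, and the second probe of CTSH rose by 1.05. DPYSL4, of a protein family that acts in axon growth, read 8.77 and 8.83 at 60 min, against 7.73 and 7.90. TMEM178A, MEGF6 and CLPSL2 are dimmer genes with changes of 1.19, 1.03 and 1.12, or 0.52, 0.47 and 0.53 without background correction. HINT3 read 11.23 and 11.48 at 60 min, against 10.10 and 9.94, a change of 1.34 ± 0.11, but its other probe changed by 0.21 and did not pass. SEMA5B, an axon guidance gene, had untreated readings of 5.44 and 6.15 and a change of 0.98 ± 0.23, which was 0.63 and no longer called without control replicate 1 (highest adjusted p 0.0916), and 0.44 without background correction. The other genes of this paragraph held in every setting.

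The coding genes that fell most include a histone gene, chromatin regulators and cell surface receptors. H2BC5, a histone H2B gene, read 6.25 and 6.34 at 60 min, against 7.92 and 7.70 in untreated cells. TADA2B, the adaptor subunit of the histone acetyltransferase complex SAGA, read 8.54 and 8.59 at 60 min, against 9.69 and 9.91. JADE2, a scaffold of another histone acetyltransferase complex, read 8.14 and 7.96 at 60 min, against 9.08 and 9.08. In all 3 both 60 min arrays lay below both untreated arrays, with changes of -1.51 ± 0.13, -1.24 ± 0.09 and -1.03 ± 0.09 (adjusted p = 5.48e-05, 1.05e-05 and 5.12e-05). The change of H2BC5 was -0.84 without background correction. P2RY11, a receptor for extracellular ATP, read 8.29 and 8.43 at 60 min, against 9.49 and 9.50. GPER1, a membrane receptor for oestrogen, read 7.07 and 7.12 at 60 min, against 8.18 and 8.23, with a change of -1.11 ± 0.10, or -0.72 without background correction. Of 66 G protein coupled receptor genes 9 were lower (13.6%, beside 12.3% of all genes) and 3 higher with a median of -0.08, and 6 were lower and 0 higher without control replicate 1, 4 and 2 without control replicate 2. CGA, the shared subunit of several pituitary and placental hormones, read 8.24 and 8.19 at 60 min, against 9.14 and 9.36.

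RANBP3L and the rhomboid protease gene RHBDL2 were also among the largest falls. RANBP3L read 5.34 and 5.71 at 60 min, against 6.71 and 6.67 in untreated cells, and both its probes fell (-1.17 and -0.86), though by only 0.51 without background correction for the brighter. RHBDL2 changed by -1.28 and ESS2, a gene tied to splicing, by -1.06 on the brighter probe, while their other probes changed by -0.10 and -0.00 and did not pass. The Src family kinase gene FGR was not above background at 60 min and at least 1.84-fold lower (adjusted p = 0.00207), and VGLL3, a cofactor of TEAD factors, at least 1.4-fold lower (adjusted p = 0.00548), where the call ended without control replicate 1 (adjusted p = 0.0515). MIR503HG, the host of a microRNA cluster, read 7.92 and 7.79 at 60 min, against 8.89 and 8.85. Genes with several probes that all fell also included the forkhead genes FOXD4 and FOXD4L1, described below, and GAS2L1, which links actin to microtubules. GAS2L1 was not above background at 60 min and at least 1.43-fold lower (adjusted p = 0.00958), and was no longer called without control replicate 1 (adjusted p = 0.081). Without background correction the changes of FGR, VGLL3 and GAS2L1 were -0.44, -0.44 and -0.37. Of 868 called genes with more than 1 detected probe, all probes changed with the same sign in 717, and all passed in the same direction in 223.

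**Figure D2:**
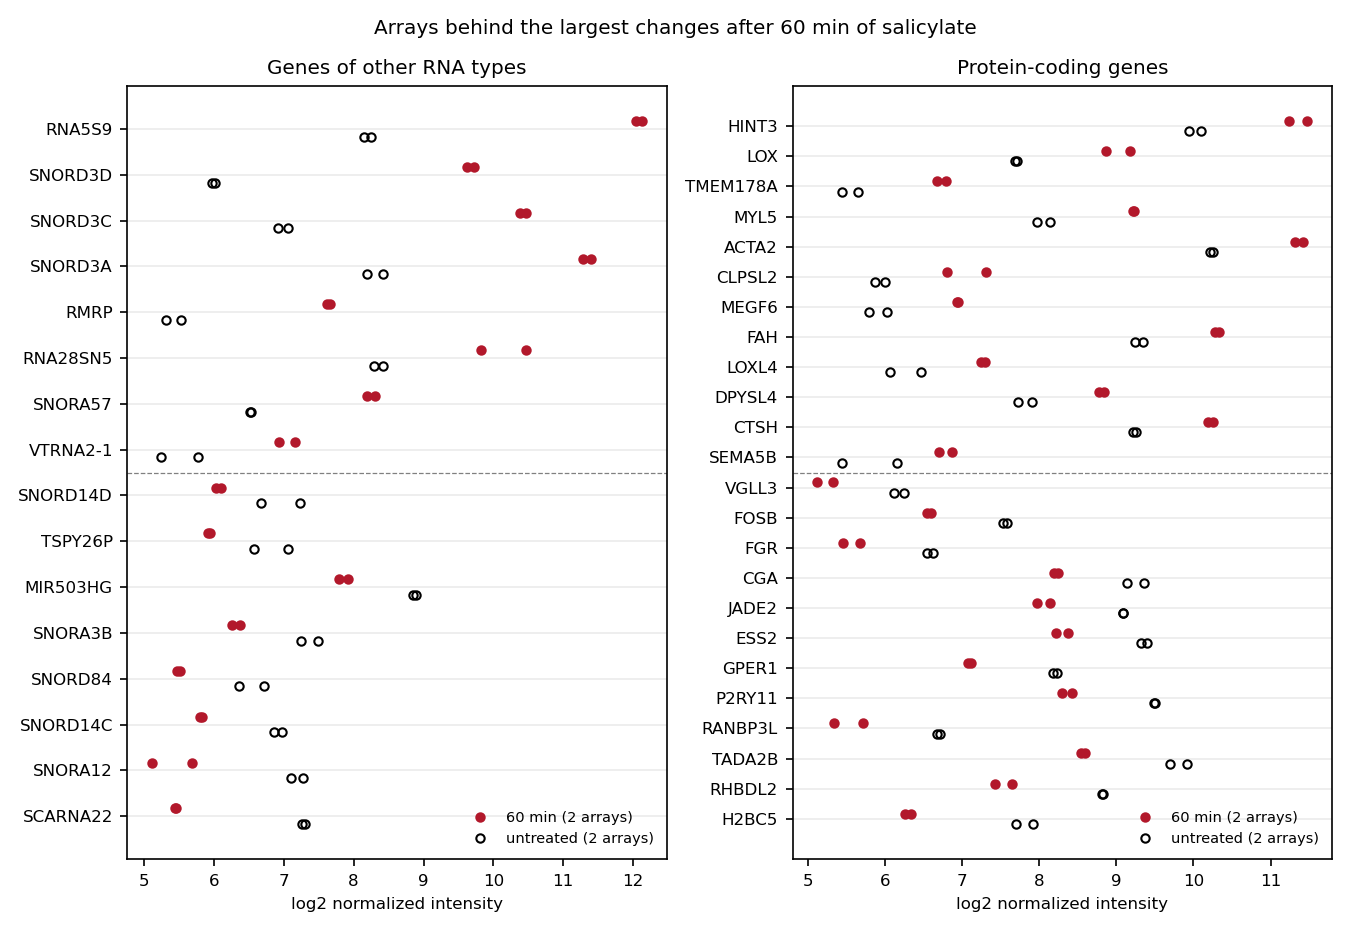
Log2 normalized intensity (horizontal axis) on each array for the 8 highest and 8 lowest genes of other RNA types (left) and the 12 highest and 12 lowest coding genes (right), with filled circles for the 2 arrays at 60 min and open circles for the 2 untreated arrays; the dashed line separates rises from falls. In each gene drawn both filled circles lie on the same side of both open circles; RNA28SN5 (9.83 to 10.46 at 60 min), SEMA5B (5.44 to 6.15 untreated) and SNORA12 (5.11 to 5.68 at 60 min) are among the wider pairs.

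Among immediate early and signal-induced genes, the AP-1 and CREB lists had 6 of 11 and 6 of 12 members lower after 60 min and 0 higher. The lower shares were 54.5% and 50%, and over all genes 12.3% were lower and 10.5% higher. FOSB, a subunit of the transcription factor AP-1, read 6.59 and 6.55 at 60 min, against 7.58 and 7.53 in untreated cells. FOS read 6.76 and 6.56 at 60 min, against 7.11 and 7.39, and JUND 13.83 and 13.77 at 60 min, against 14.20 and 14.23. In these 3 both 60 min arrays were the lower ones, and the changes were -0.99 ± 0.12, -0.59 ± 0.15 and -0.42. Of 11 AP-1 subunits, 6 were lower and 0 higher, the others being JUNB (-0.59), MAFG (-0.43) and JUN (-0.33), with a list median of -0.33 beside -0.0082 over all genes. The count was 3 without control replicate 1, control replicate 2 or 60 min replicate 2, and the median -0.17 without 60 min replicate 2. FOS, JUNB and MAFG each lost their calls in several settings (highest adjusted p 0.156, 0.199 and 0.15), and FOSB held in all. Without background correction the changes of FOSB, FOS, JUNB and NR4A2 were -0.55, -0.32, -0.26 and -0.40. Of 12 targets and coactivators of CREB, the factor that answers cyclic AMP, 6 were lower and 0 higher (median -0.29). Beside FOS and FOSB these were the growth factor gene BDNF (-0.69), NR4A2 (-0.65), CRTC3 (-0.36) and CRTC2 (-0.32), and 3 were lower without control replicate 2. NR4A2 rests on its brighter probe, since the other changed by -0.05, and it was not called without control replicate 2 (highest adjusted p 0.185). Of 6 EGR, NR4A and IER genes 3 were lower and 1 higher (50% and 16.7%, median -0.35). IER5 (-0.39) held in every setting, EGR1 (-0.31) was lost without control replicate 1 or either 60 min array (adjusted p = 0.0334 with all arrays), and IER3, the member called higher (0.23), was lost with either control array or 60 min replicate 1 omitted and with median scaling. IER2 (-0.40) and IER5L (0.05) did not pass.

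The feedback inhibitors of MAP kinase and BMP signalling that passed the test were lower, fewer than the members that did not pass. The MAP kinase, BMP and TGF-beta, and FOXO and insulin lists had 38.5%, 46.2% and 40% lower, beside 12.3% of all genes. Higher were 0 in each, beside 10.5% of all genes. SPRED2, an inhibitor of the RAS to MAP kinase path, read 8.73 and 8.68 at 60 min, against 9.29 and 9.26 in untreated cells. SPRY1 and SPRED1, of the same families, changed by -0.41 and -0.37, and all 3 genes held in every setting. Of 13 MAP kinase feedback genes 5 were lower and 0 higher (median -0.25), with 3 and 0 without control replicate 1 and without control replicate 2. Of 13 feedback genes of BMP and TGF-beta 6 were lower and 0 higher (median -0.35, and -0.22 without background correction). SKI and SMAD7, which block SMAD signalling, changed by -0.64 ± 0.11 and -0.37 ± 0.07, and ID2 by -0.39, on 1 of its 2 probes. Of 15 genes induced by FOXO factors or feeding back on insulin signalling 6 were lower and 0 higher (median -0.16), and 2 were lower without control replicate 2. Among them the repressor gene BCL6 read 8.21 and 8.04 at 60 min, against 8.70 and 8.89, and the pseudokinase gene TRIB1 9.84 and 9.82 at 60 min, against 10.42 and 10.54. GAS1, a coreceptor for Hedgehog, read 10.23 and 10.46 at 60 min, against 11.09 and 10.98, and MYC 11.60 and 11.57 at 60 min, against 12.10 and 12.14. For MYC both probes fell (-0.53 and -0.62).

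Of 10 glucocorticoid receptor targets 5 were lower (50%, beside 12.3% of all genes) and 0 higher. Their median was -0.33, and 8 of the 10 changes were below 0, beside 6446 of the 12547 over all genes. TSC22D3, also called GILZ, read 12.36 and 12.39 at 60 min, against 13.21 and 13.18 in untreated cells, a change of -0.82 ± 0.05 (adjusted p = 3.52e-06). Of its 4 detected probes 3 fell, by up to 1.04 on the log2 scale, and the remaining probe changed by 0.13. The kinase gene SGK1 read 9.31 and 9.50 at 60 min, against 10.01 and 10.10, and its 3 probes fell by nearly the same amount (-0.64 to -0.65). The others that passed were ERRFI1 (-0.44), NFKBIA (-0.37) and the phosphatase gene DUSP1 (-0.29). The count stayed at 4 to 6 with any 1 array left out, and 4 members held in every setting.

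HOX and forkhead genes, both families of developmental transcription factors, had more members lower than higher. Of 25 members in the HOX list 13 were lower and 0 higher, or 52% beside 12.3% of all genes, and their median was -0.30. The 24 coding members, which set position along the body axis, also gave 13 lower and 0 higher. HOXB13 read 6.66 and 6.82 at 60 min, against 7.36 and 7.40 in untreated cells, and HOXC13 read 10.30 and 10.36 at 60 min, against 10.71 and 10.79. Both 60 min arrays were below both untreated arrays in each, with changes of -0.64 ± 0.13 and -0.42 ± 0.07, and the change of HOXB13 was -0.35 without background correction. HOXB4 (-0.41) and HOXB6 (-0.35) were lost without control replicate 1 (highest adjusted p 0.1 and 0.396), and the second probe of HOXB6 pulled the mean of its probes below the threshold. The HOX count was 6 with either control array omitted, and 4 members held in every setting. With median scaling 11 were lower.

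The forkhead family, which includes factors for development and metabolism, gave 16 lower and 0 higher of 31 members, with a median of -0.27. This was 51.6% lower, beside 12.3% of all genes. The 30 coding members also gave 16 lower and 0 higher. FOXD4 read 9.80 and 9.66 at 60 min, against 10.62 and 10.69 in untreated cells, and FOXD4L1 read 9.38 and 9.15 at 60 min, against 10.17 and 10.14. All probes of both genes fell, by 0.89 to 1.00 on the log2 scale, but the genes are near-identical copies and may share their signal. FOXK1, a repressor that acts in metabolism, changed by -0.60 ± 0.10, and FOXK2 by -0.58, or -0.36 without background correction, and FOXK2 was not called without control replicate 2 (adjusted p = 0.0816). Without control replicate 2 the family count was 10, and 9 members held in every setting. Of 42 other homeobox genes 10 were lower and 0 higher (median -0.10), with 4 and 0 without control replicate 1 and without control replicate 2. The 10 lower were 23.8% of these other homeobox genes, and among the 40 coding ones 9 were lower and 0 higher. EN2, a midbrain patterning gene, read 8.39 and 8.37 at 60 min, against 9.21 and 9.24, and MSX1 changed by -0.41. SOX genes had no common direction. Of 13 in the list, 12 of them coding, SOX3 (0.56) and SOX12 (0.59) were higher, and SOX8 (-0.34) and SOX11 (-0.25) lower (15.4% each way). Of these 4 calls that of SOX3 alone held in every setting. The other 3 ended with either control array or 60 min replicate 2 omitted, and that of SOX12 (0.25 without background correction) also without 60 min replicate 1 (adjusted p up to 0.175).

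The large families of zinc finger factors had more members lower than higher. The list of genes named ZNF holds 373, of which 11 are not coding. Of its 362 coding genes, many of which are C2H2 factors that silence transcription through KRAB domains, 86 were lower and 13 higher. In the whole list 88 were lower and 14 higher (23.6% and 3.75%, beside 12.3% and 10.5% of all genes). Its median was -0.14, or -0.22 with median scaling. The counts were 39 lower and 3 higher without control replicate 1, 32 and 4 without control replicate 2, and 64 and 3 without 60 min replicate 2, while 23 lower members and 0 higher ones held in every setting. ZNF490 read 7.06 and 7.12 at 60 min, against 7.86 and 7.82 in untreated cells, and ZNF618 read 7.67 and 7.57 at 60 min, against 8.31 and 8.50. These were changes of -0.75 ± 0.12 (-0.47 without background correction) and -0.79 ± 0.11. Of 38 genes whose names start with ZBTB, most of which join zinc fingers to a BTB domain, 15 were lower and 2 higher (39.5% and 5.26%, median -0.24). The list was drawn by name, which is the only ground for including ZBTB8OS. Its 37 coding members gave 14 lower and 2 higher. ZBTB34 and ZBTB42 both changed by -0.65, and the members called higher, ZBTB20 (0.45) and ZBTB8OS (0.25), were not called higher with either control array omitted. With either control array omitted 5 were lower, without 60 min replicate 2 there were 9, and 4 held in every setting.

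**Figure D3:**
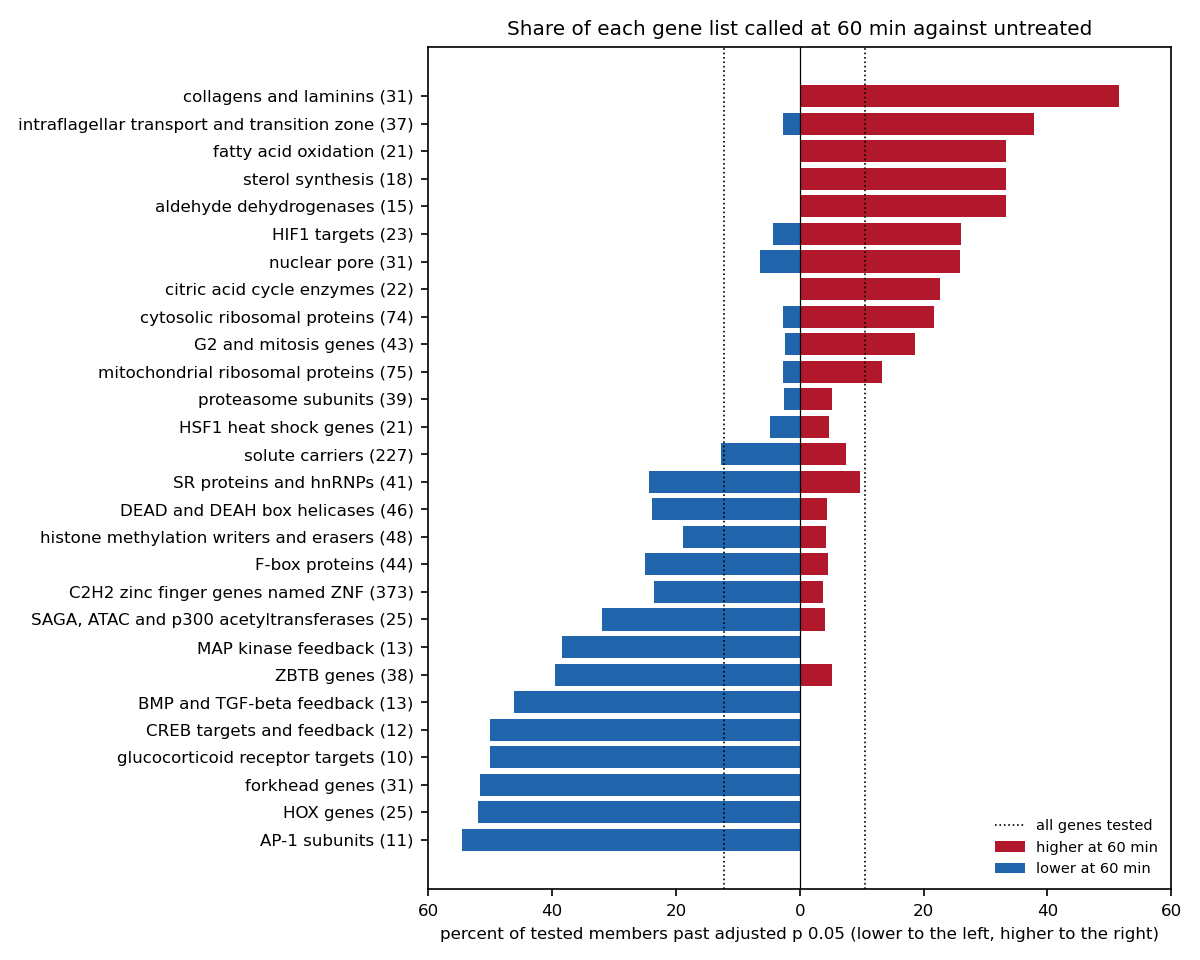
Percentage of tested members of each gene list that passed the test, lower at 60 min drawn to the left in blue and higher at 60 min to the right in red (horizontal axis), with the number tested in brackets; dotted lines mark the shares over all genes, 12.3% lower and 10.5% higher. Collagens and laminins and cilium genes lie farthest to the right, and AP-1 subunits, HOX genes and forkhead genes farthest to the left; with median scaling 11 collagen and laminin genes and 4 cilium genes were higher, and 6, 11 and 12 members of the other 3 lists lower.

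Chromatin regulators moved less uniformly. Of 25 subunits of SAGA, ATAC and p300 type acetyltransferases 8 were lower and 1 higher (median -0.13), with TADA2B lowest. These were 32% and 4%, beside 12.3% and 10.5% of all genes. ZZZ3 of ATAC fell on both probes (-0.46 and -0.41) and CREBBP, a coactivator acetyltransferase, changed by -0.40. SUPT3H of SAGA went the other way, reading 8.95 and 9.08 at 60 min, against 8.51 and 8.31 in untreated cells, with both probes higher (0.61 and 0.77). Omitting control replicate 1 left 5 lower, and omitting control replicate 2 left 2, where the CREBBP call was lost (adjusted p = 0.0598), and 2 lower members held in every setting. Of 48 histone methylation genes 9 were lower and 2 higher (18.8% and 4.17%, beside 12.3% and 10.5% of all genes), with a median of -0.11. NSD3 (-0.53) and SETD1A (-0.52) were lower in every setting, and with median scaling 8 members were lower and 0 higher. Of 40 histone genes 5 were higher and 3 lower (12.5% and 7.5%, beside 10.5% and 12.3% of all genes). H4C12 read 7.16 and 7.32 at 60 min, against 6.37 and 6.44 (0.84, or 0.43 without background correction), while H2BC12 fell by 0.40 on the log2 scale. HDAC6, the deacetylase of tubulin, changed by 0.56 ± 0.11, and of the sirtuins SIRT5 changed by 0.53 and SIRT4 by -0.47, although the 4 probes of SIRT5 ranged from -0.19 to 0.79.

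Genes that handle RNA included members that fell, in lists most of whose members did not pass. ZFP36L2 and TOB1, which recruit the machinery that shortens poly(A) tails, read 8.82 and 8.55 (ZFP36L2) and 11.80 and 11.59 (TOB1) at 60 min, against 9.62 and 9.53 and 12.48 and 12.36 in untreated cells. Their changes were -0.89 ± 0.10 and -0.72 ± 0.07, and both held in every setting. Of 33 mRNA decay factors 7 were lower and 2 higher (21.2% and 6.06%, beside 12.3% and 10.5% of all genes), with a median of -0.14. With median scaling 5 were lower and 0 higher. Of 46 helicases of the DEAD and DEAH families 11 were lower and 2 higher (23.9% and 4.35%, beside 12.3% and 10.5% of all genes), with a median of -0.07. DDX54 and DDX39A changed by -0.57 and -0.38, and DDX60, an antiviral factor, rose by 0.76, or by 0.37 without background correction. Without control replicate 1 the helicase count was 7 lower, without control replicate 2 it was 6, and 7 with median scaling. Of 41 genes in the list of SR proteins and hnRNPs, which bind messages during splicing, 10 were lower and 4 higher (24.4% and 9.76%, median -0.03). With median scaling the counts were 3 and 2. The list holds 4 genes that are not coding. Among its 37 coding genes 10 were lower and 2 higher (median -0.05). Of 27 genes of the nuclear exosome and RNA tailing 3 were higher and 2 lower (11.1% and 7.41%, near the shares of all genes), with a median of 0.02. With median scaling 0 were higher and 2 lower. Of 10 kinases of the CLK and DYRK families, which phosphorylate SR splicing factors, 3 were lower and 0 higher: CLK4 (-0.57), DYRK2 (-0.44) and DYRK1A (-0.39), the last not without control replicate 2 (adjusted p = 0.0687). Beside the rise of 7SK RNA, MEPCE, which caps it, fell by 0.54 on the log2 scale. In the 7SK and P-TEFb list 38.9% were lower, beside 12.3% of all genes. Of the 18 genes of the 7SK and P-TEFb list 7 were lower, with 2 without control replicate 1 and 3 each without control replicate 2, without 60 min replicate 2 and with median scaling. Of 37 polymerase I and III genes 4 were higher and 7 lower (10.8% and 18.9%, beside 10.5% and 12.3% of all genes). With median scaling 3 were higher and 5 lower. GTF3C3 (0.48) and POLR3GL (0.47), which act in transcription by polymerase III, were higher in every setting, while 3 members of the list were lower in every setting.

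Collagen and laminin genes were the list with the largest upward shift among coding genes drawn in the plot of shares called. Of 31 members 16 were higher and 0 lower, or 51.6% beside 10.5% of all genes, and their median was 0.38, against 0.25 without background correction and 0.30 with median scaling. COL18A1, a collagen of basement membranes, read 9.29 and 9.29 at 60 min, against 8.58 and 8.68 in untreated cells. LAMA1, a laminin chain of embryonic basement membranes, read 9.38 and 9.49 at 60 min, against 8.74 and 8.82, and rose on both probes (0.66 and 0.79). The 60 min arrays were above the untreated ones throughout, and both changes were 0.66, with adjusted p = 0.000394 and 0.000553. The cartilage collagens COL9A2 and COL2A1 are dimmer, with changes of 0.66 and 0.61, or 0.34 and 0.26 without background correction, and without control replicate 2 neither was called. COL2A1 was not called with any of the 4 arrays left out (adjusted p up to 0.117). The list count ranged from 11 (without control replicate 2) to 15 with 1 array left out and was 11 with median scaling, with 0 lower each time, and 9 members held in every setting. P4HA2 and P4HA1, which hydroxylate the prolines of collagen, changed by 0.51 ± 0.06 and 0.30 ± 0.09, and P4HA2 held in every setting while P4HA1 was lost without control replicate 1 (highest adjusted p 0.379).

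Genes of cilium assembly also had more members higher. Of 37 genes of intraflagellar transport and the transition zone, the gate at the cilium base, 14 were higher and 1, BBS2 (-0.30), lower, with a median of 0.19. These were 37.8% and 2.7%, beside 10.5% and 12.3% of all genes. TCTN1, of the transition zone, read 10.90 and 10.78 at 60 min, against 10.24 and 10.43 in untreated cells, and TCTN3 read 9.85 and 9.90 at 60 min, against 9.43 and 9.36. The groups did not overlap in either, and both changes (0.50 ± 0.08 and 0.48 ± 0.08) held in every setting. CEP290 (0.54, or 0.34 without background correction) and IFT74 (0.52) were lost without control replicate 1 (adjusted p up to 0.134 and 0.0571). The list gave 7 higher with either control replicate 1 or 60 min replicate 2 omitted, 5 with control replicate 2 omitted and 4 with median scaling.

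**Figure D4:**
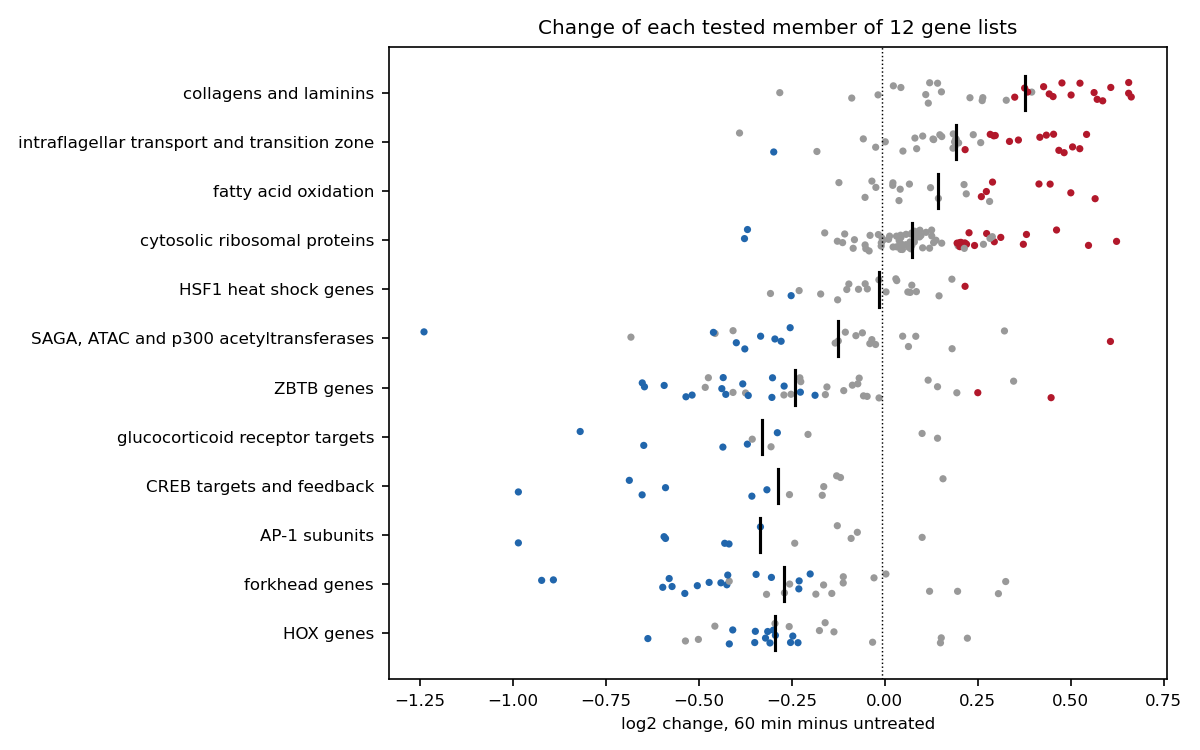
Log2 change, 60 min minus untreated (horizontal axis), of each tested member of 12 gene lists; red points passed the test as higher, blue points as lower, grey points did not pass, the black bar is the list's median and the dotted line the median over all genes (-0.0082). The bars run from 0.38 for collagens and laminins to -0.33 for AP-1 subunits and glucocorticoid receptor targets, and the HSF1 heat shock genes gather near 0; with median scaling the collagen and laminin median was 0.30 and that of AP-1 subunits -0.38.

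Enzymes of energy and lipid metabolism that changed were mostly higher. Of the lists in this paragraph other than those of the respiratory chain, 22.7% (citric acid cycle) to 33.3% (fatty acid oxidation, sterol synthesis, aldehyde dehydrogenases) were higher, beside 10.5% of all genes. Respiratory chain subunits lay near or below that share. Of 33 complex I subunits 4 were higher (12.1%), and of 42 genes in the list of complexes III to V 3 were (7.14%). The second list holds 2 genes that are not coding, and among its 40 coding genes 3 were higher. In both lists 0 were lower, and with median scaling 0 and 1 were higher. IDH2, the NADP-linked isocitrate dehydrogenase of mitochondria, read 10.62 and 10.57 at 60 min, against 9.87 and 9.75 in untreated cells, a change of 0.79 ± 0.07 (adjusted p = 5.3e-05). Of 22 enzymes of the citric acid cycle 5 were higher and 0 lower (median 0.05), 3 without control replicate 1 or control replicate 2 and 1 with median scaling. Of 21 genes in the fatty acid oxidation list 7 were higher and 0 lower (median 0.14), and 2 were higher with median scaling. CPT1C had the largest change (0.57), and ETFB (0.41) held in every setting. Of 18 genes of sterol synthesis 6 were higher and 0 lower (median 0.15), and 2 were higher with median scaling. HMGCS1, which commits acetyl groups to the mevalonate pathway, read 11.76 and 11.82 at 60 min, against 11.31 and 11.36. Of 15 aldehyde dehydrogenases 5 were higher and 0 lower (median 0.20), with 3, 2 and 1 without control replicate 1, without control replicate 2 and with median scaling, and ALDH6A1 (0.50) held throughout. Of 20 glycolytic enzymes 6 were higher and 1, the regulator PFKFB3 (-0.27), lower. PFKL (0.53) and PFKP (0.45), subunits of phosphofructokinase, held in every setting, and the number higher was 3 without control replicate 2 and 2 with median scaling. Of 23 targets of the hypoxia factor HIF1 6 were higher and 1 lower (median 0.10), with 3 higher without control replicate 1 and 2 with median scaling. ANKRD37 led them, reading 7.33 and 7.38 at 60 min, against 6.54 and 6.47, a change of 0.85 ± 0.13, or 0.45 without background correction.

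Mitochondrial uncoupling and the sensors tied to salicylate's known actions gave mixed results. UCP2, a carrier of the uncoupling protein family, read 8.03 and 8.01 at 60 min, against 7.15 and 7.20 in untreated cells, a change of 0.84 ± 0.12, or 0.54 without background correction. Of 7 uncoupling proteins and carriers measured it was the 1 called higher, and 1 was lower (14.3% each, median -0.02). Over all genes 10.5% were higher and 12.3% lower. TXNIP, which the glucose sensor MondoA induces, averaged 11.02 at 60 min, against 10.49, with no overlap between arrays, a change of 0.53 ± 0.07. Its relative ARRDC4 changed by 0.15 ± 0.09 and did not pass. Of 15 genes for AMP-activated kinase and its activators PRKAB1 was higher (0.26) and PRKAG2 and CAB39 lower (-0.25 and -0.24), and with either control array omitted, or with median scaling, 0 of them passed. In the NF-kappaB pathway NFKB1, the gene of the p50 subunit, read 10.44 and 10.30 at 60 min, against 10.81 and 10.86, and NFKBIA, the inhibitor it induces, 11.36 and 11.17 at 60 min, against 11.62 and 11.65. These falls of 0.47 ± 0.07 and 0.37 ± 0.07 held in every setting. Of 17 pathway genes 3 were lower and 3 higher (17.6% each, beside 12.3% and 10.5% of all genes), and 0 were higher with median scaling. Among 5 cytokine targets of NF-kappaB that were measured, CCL2, the chemokine for monocytes, read 7.33 and 7.35 at 60 min, against 8.29 and 8.31, a change of -0.96 ± 0.10. CCL20 was not above background in untreated cells and at least 1.45-fold higher (adjusted p = 0.0154), but was not called without control replicate 1 or 60 min replicate 2 (adjusted p up to 0.126), and CXCL8, CCL5 and VCAM1 did not pass. Of 7 genes of prostaglandin synthesis, the process that aspirin blocks, PTGES changed by 0.56 (0.34 without background correction), and with either control array or 60 min replicate 2 omitted 0 passed.

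Cell cycle and growth arrest genes included large and small changes. GADD45G, a stress-induced growth arrest gene, read 8.25 and 8.38 at 60 min, against 7.58 and 7.30 in untreated cells (0.88 ± 0.11), while GADD45A and GADD45B changed by 0.01 and -0.08 and did not pass. CDKN1A, the p21 inhibitor of cyclin-dependent kinases, read 13.32 and 13.25 at 60 min, against 12.86 and 12.88, and CDKN2B, the p15 inhibitor, 9.23 and 9.13 at 60 min, against 9.84 and 9.81. The p21 gene thus rose by 0.42 ± 0.05 and the p15 gene fell by 0.65 ± 0.08 on the log2 scale, on both its probes. Of 17 p53 targets CDKN1A and DDB2 (0.60, or 0.33 without background correction) were higher and 0 lower, and DDB2 was not called without control replicate 2 (adjusted p = 0.0643). Of 43 genes of G2 and mitosis 8 were higher and 1, BUB3 (-0.24), lower, with a median of 0.14. These were 18.6% and 2.33%, beside 10.5% and 12.3% of all genes. CENPI, CENPE and HMMR, which act at kinetochores and the spindle, changed by 0.58, 0.47 and 0.45 and held in every setting. The number higher varied from 3 (without control replicate 1) to 13 (without 60 min replicate 1), and was 5 without control replicate 2 or 60 min replicate 2 and 3 with median scaling. Among regulators of apoptosis HRK rose by 0.54 and BCL2L1 fell by 0.38 on the log2 scale in every setting, and BCL2 changed by -0.53, which did not pass without control replicate 1 (adjusted p = 0.0595).

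Ribosomal protein and nuclear pore genes had medians just above 0. Shares higher and lower were 21.6% and 2.7% for cytosolic ribosomal protein genes and 25.8% and 6.45% for nuclear pore genes. Over all genes they were 10.5% and 12.3%. Of 74 cytosolic ribosomal protein genes 16 were higher and 2, RPL28 (-0.37) and RPL7L1 (-0.38), lower, with a median of 0.07. RPL39L, a paralog, read 10.78 and 10.90 at 60 min, against 10.25 and 10.19 in untreated cells, and rose on both probes. Counts of higher genes were 6 with control replicate 1 omitted, 10 with control replicate 2 omitted, 9 with 60 min replicate 2 omitted and 5 with median scaling, and 2 members held in every setting. Of 75 mitochondrial ribosomal protein genes 10 were higher (13.3%, beside 10.5% of all genes) and 2 lower (median 0.06), but 0 were higher with median scaling, 2 and 1 without control replicate 1 and without control replicate 2, and 4 without 60 min replicate 2. MRPL57 was the exception in direction that held in every setting, with both probes lower and a change of -0.63 ± 0.08. Of 31 nuclear pore genes 8 were higher and 2 lower (median 0.11), with 4 higher without control replicate 1, 3 without control replicate 2 and 1 with median scaling, and NUP210 (0.56) held throughout.

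Classical stress programmes had few calls or calls in both directions, apart from NRF2 targets. Of 21 heat shock genes under HSF1, HSPB1 was higher (0.22) and CHORDC1 lower (-0.25), with a median of -0.02, and neither passed with either control array or 60 min replicate 2 omitted or with median scaling. Of 20 genes of the unfolded protein response HSP90B1 was higher (0.29, in every setting), and HYOU1 (-0.28) and SYVN1 (-0.32) were lower, these 2 not with either control array omitted. Of 24 targets of ATF4, the factor of the integrated stress response, 3 were higher and 5 lower (median -0.02). These shares were 12.5% and 20.8%, beside 10.5% and 12.3% of all genes, and with median scaling the counts were 1 and 6. PPP1R15A, which reverses the block on translation, fell by 0.36 and CEBPB by 0.37 on the log2 scale. Of 13 targets of the oxidative stress factor NRF2 5 were lower (38.5%, beside 12.3% of all genes) and 0 higher (median -0.09). KEAP1, its inhibitor, read 10.82 and 10.68 at 60 min, against 11.20 and 11.15 in untreated cells, and the peroxiredoxin repair gene SRXN1 changed by -0.38. The count was 3 without control replicate 1 and 2 each without control replicate 2 and without 60 min replicate 2, where the haem oxygenase gene HMOX1 (-0.38) was also no longer called. MTF1, the zinc-sensing factor, fell by 0.63 on the log2 scale, while its metallothionein target MT1F rose by 0.56 (0.34 without background correction), both in every setting. SLC5A3, the inositol transporter induced by osmotic stress, read 6.95 and 7.03 at 60 min, against 7.69 and 7.63 (-0.67, or -0.40 without background correction), and the clock repressor gene CRY1 changed by -0.55 ± 0.07.

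Turnover, transport and signalling genes closed the range. Shares lower and higher were 25% and 4.55% for F-box genes and 25% and 0% for amino acid transporters. Over all genes they were 12.3% and 10.5%. Of 44 F-box genes, the substrate adaptors of SCF ubiquitin ligases, 11 were lower and 2, FBXO6 (0.40) and FBXW9 (0.27), higher, with 5 lower without control replicate 1 and 5 without control replicate 2. Of 39 ubiquitin-specific proteases 6 were lower (15.4%, beside 12.3% of all genes) and 0 higher (median -0.08), with 3 and 1 lower without control replicate 1 and without control replicate 2. Of 227 solute carriers 29 were lower and 17 higher, shares near those of all genes, and with either control array omitted the counts were 12 and 9. SLC30A3, a zinc transporter of synaptic vesicles, read 10.73 and 10.61 at 60 min, against 9.97 and 9.90 in untreated cells, and SLC66A3 changed by 0.79 ± 0.08. Of 16 amino acid transporters 4 were lower and 0 higher: SLC7A6 (-0.46), SLC3A2 (-0.33), SLC7A5 (-0.29) and SLC7A1 (-0.27), the last 2 not with either control array or 60 min replicate 2 omitted. The proton pump subunit gene ATP6V1C1 read 9.01 and 9.01 at 60 min, against 9.69 and 9.53, and WIPI2, which acts in forming autophagosomes, 8.76 and 8.53 at 60 min, against 9.30 and 9.50. WIPI2 was the 1 lower call among 27 autophagy genes, of which 4 were higher (3.7% and 14.8%, median 0.01). With median scaling 1 was lower and 0 higher. PPP1R3F, a glycogen-targeting subunit of protein phosphatase 1, read 8.74 and 8.77 at 60 min, against 9.53 and 9.60, and its fall of 0.81 ± 0.08 on the log2 scale held in every setting (adjusted p = 7.04e-05).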

How the data were processed

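Expression was measured in HEK293 cells on 6 arrays, 2 in each of 3 groups. The authors deposited, per the file headers, the intensity of each probe on a linear scale, not normalized, with a detection p-value beside it. The authors also deposited a table of log2 values, which differed by at most 5e-07 from log2 intensities quantile normalized with no background correction. The tools given, per the submitters' processing notes, are GenomeStudio 2011.1 and R 2.15.3.

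From the intensities, background was corrected by normexp (neqc, offset 16), its noise parameters read from the detection p-values, followed by quantile normalization and log2, in limma 3.58.1 and R 4.3.3. A gene was represented by its detected probe with the highest mean. Of 47323 probes 30113 had 1 gene symbol, 8 several and 17202 none in the annotation used, and symbols were updated to RefSeq. All 6 arrays were fitted together (lmFit, eBayes with an intensity trend) with 3 residual and 8.91 prior degrees of freedom, and p-values were adjusted by Benjamini-Hochberg over 12547 genes, with a threshold of 0.05. A change is relative to the array's other transcripts. The median SE was 0.0919. Precision is limited by the number of arrays, and array intensities compress large changes.

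The gene lists and the rule for naming genes were chosen with earlier results of these data known, so list counts describe and do not test. Named were the 12 coding genes highest and the 12 lowest, the 8 highest and 8 lowest genes of other RNA types, up to 4 called members of each list by size of change, all members of lists with at most 6 measured, and the 5 higher and 5 lower genes with all probes called and the largest smallest change. Members named because a count was 6 or fewer, or as the defining gene of a list, were chosen after their values were seen. Alternatives covered background correction, scaling (median, cyclic loess), the authors' table, the detection filter, fitting the 4 arrays alone, the replicate number as a block, the variance trend, averaging probes and leaving out each array.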

Additional observations from a re-analysis of the deposited data

Results flagged for a closer look

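Of the 5668 detected probes that the annotation used here does not name, 602 passed the test at 60 min over all detected probes (10.6%), 328 higher and 274 lower, with log2 changes from 3.00 to -3.72. They appear in no comparison above because they have no gene name, and their signal stood above background on at least 2 arrays.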

How the results depend on the processing

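The 341 called genes named by the rule kept their directions in each of the 16 other settings that tested them (320 in the filter on all 6 arrays, 341 in the others), and 162 kept their calls in each such setting; omission of control replicate 1 ended 111 and of control replicate 2 ended 123. The number of genes called, 2871, was 1654 with median scaling and 1573 with no intensity trend in the variance, and from 1239 to 2768 with 1 array left out. The number changed at least 2-fold, 37, was 12 without background correction and 12 in the authors' table, and from 37 to 63 with 1 array left out (63 without 60 min replicate 1). The number of probes called, 3645, was 2120 with median scaling, 1086 with no intensity trend and from 1321 to 3560 with 1 array left out. Samples with the same replicate number in different groups did not deviate together (correlations 0.076, 0.038 and -0.056), and with the replicate number as a block 2885 genes were called, 37 of them changed at least 2-fold. Without background correction 71 of the 341 named changes were smaller by over 1.5 times. Cyclic loess, the authors' table, a filter on all 6 arrays and the mean of the detected probes gave 2872, 2879, 2892 and 2728 calls, and no filter 2284. The causes of these shifts were not tested. Signal near background limits the dimmest genes.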

Other observations

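The calls were not spread evenly over the range of intensity. Among the dimmest 3137 of the 12547 genes 119 were higher and 100 lower (3.79% and 3.19%), against 458 and 567 of the 3136 with a mean log2 intensity from 9.04 to 10.74 (14.6% and 18.1%). Of genes not above background in untreated cells 13 were called higher, and of genes not above background at 60 min 16 were called lower. By RNA type, 23.3% of 11858 coding genes were called (1262 higher and 1500 lower), beside 13.4% of 283 long noncoding RNAs (19 higher and 19 lower) and 15.5% of 233 transcribed pseudogenes (21 higher and 15 lower). Among the measured nuclear long noncoding RNAs KCNQ1OT1, TUG1, OIP5-AS1, CYTOR and PVT1, 0 of 5 passed in limma, with log2 changes of 0.51, -0.19, -0.03, 0.35 and -0.10.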
